A study of Mus musculus with 12 samples.

Results

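The 50 genes described here encode the machinery of DNA replication and cell division, and were chosen by symbol. The rule itself uses no measured value, but the list was chosen with earlier results of these data known. All 50 symbols matched 1 gene each among the 55359 genes of the count table. Of these, 24 act at the start of the cycle or in S phase and are called the replication class: 10 genes of origin licensing and the replicative helicase, 9 of DNA synthesis and nucleotide supply, and 5 G1 and G1/S regulators. The other 26 act in G2 and mitosis and are called the mitosis class: 7 cyclin, CDK1 and ubiquitin ligase genes, 6 mitotic kinase and checkpoint genes, 11 genes of spindle, kinetochore and chromosome proteins, and 2 transcription factors of the G2/M programme. The filter on low counts kept 49 members. Cdc25c, for a phosphatase that activates CDK1, had at most 17 counts in any library and was not tested.

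The livers were those of 12 male C57BL/6NTac mice, with 4 mice per group, and RNA was made from liver sections. Lean mice ate normal chow, and HFD control and NM-FGF19 mice ate a high-fat diet. The lean and HFD control mice received a control mRNA, and the NM-FGF19 mice an mRNA for NM-FGF19, a non-mitogenic form of the gut hormone FGF19. All mRNAs were packed in lipid nanoparticles and given weekly for 6 weeks, and livers were collected 24 hours after the final dose. The labels are not of one mind on the times: they name 21 weeks on diet ahead of the first dose, 28 weeks of feeding, and an age of 24 weeks. The names of the HFD control columns point to mouse OX40L, so a different control mRNA in that group cannot be told apart from the diet. No source used here says which liver cells took up the mRNA.

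A cell that is to divide loads the MCM2 to MCM7 ring onto replication origins with the help of CDC6 and CDT1. The E2F transcription factors switch on the replication genes at the G1/S border. A second programme run by MYBL2, FOXM1 and their partners switches on the mitosis genes in G2. Adult hepatocytes rarely divide, but they can re-enter the cycle after injury, and many do so without completing mitosis, which leaves polyploid cells. Immune cells, fibroblasts and bile duct cells of a diseased liver divide too. FGF19 in its native form can drive hepatocyte division in mice, and the study used a form named non-mitogenic.

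Both programmes act at promoters, so 4 promoters are printed as examples of the motifs they read. They belong to the 2 members of each class with the smallest adjusted p between HFD control and lean livers among those with a promoter entry that hold an E2F or a CHR motif, so that each holds one by choice. Aurkb and Foxm1, with a smaller adjusted p than Mki67, had no promoter entry and were not searched. They are RefSeq promoters of build GRCm38.p6, an older build than that of the counts, and hold the 250 bases before the start. Letters in capitals mark matches on either strand to an E2F motif (TTGGCGC or TTGCCGC or TTCGCGC or TTCCCGC), a CHR motif (TTTGAA or TTCGAA), which is known from promoters of mitosis genes, or the NF-Y box (CCAAT). Overlapping matches to 1 motif on opposite strands are counted separately, and a palindrome once.
Mcm5 (chr8:75109259-75109508, plus strand): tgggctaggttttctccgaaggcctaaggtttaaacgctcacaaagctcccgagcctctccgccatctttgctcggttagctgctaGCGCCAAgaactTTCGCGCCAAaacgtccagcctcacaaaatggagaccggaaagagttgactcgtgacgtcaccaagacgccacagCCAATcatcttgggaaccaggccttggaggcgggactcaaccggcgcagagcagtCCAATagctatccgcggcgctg
Mcm6 (chr1:128359706-128359955, minus strand): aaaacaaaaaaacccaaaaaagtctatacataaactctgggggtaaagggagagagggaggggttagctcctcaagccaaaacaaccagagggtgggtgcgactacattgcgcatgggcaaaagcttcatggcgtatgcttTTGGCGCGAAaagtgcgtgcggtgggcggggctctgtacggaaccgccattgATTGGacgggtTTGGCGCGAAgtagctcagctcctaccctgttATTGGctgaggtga
Top2a (chr11:99024190-99024439, minus strand): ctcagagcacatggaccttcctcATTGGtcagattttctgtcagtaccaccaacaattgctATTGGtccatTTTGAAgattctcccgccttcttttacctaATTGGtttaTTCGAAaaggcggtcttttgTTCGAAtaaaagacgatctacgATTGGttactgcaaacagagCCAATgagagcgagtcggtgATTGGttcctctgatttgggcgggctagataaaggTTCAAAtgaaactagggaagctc
Mki67 (chr7:135716380-135716629, minus strand): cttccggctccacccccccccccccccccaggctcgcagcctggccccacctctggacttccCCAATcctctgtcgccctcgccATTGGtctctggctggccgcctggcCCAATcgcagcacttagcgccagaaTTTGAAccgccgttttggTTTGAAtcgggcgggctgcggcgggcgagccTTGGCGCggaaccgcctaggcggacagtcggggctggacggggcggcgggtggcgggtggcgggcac
The Mcm5 sequence held 3 E2F matches and the Mcm6 sequence 4, each held 2 NF-Y boxes, and neither held a CHR match. The Top2a sequence held 4 CHR matches, 6 NF-Y boxes and no E2F match. The Mki67 sequence held 2 CHR matches, 3 NF-Y boxes and 1 E2F match.

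Over the classes, where no gene was picked for its motifs, the motifs were unevenly spread. Of the 50 members, 39 had an entry in the promoter table, with windows of 300 bases that reach 50 bases past the start. An E2F match stood in 13 of 19 replication genes (68.4%) and in 4 of 20 mitosis genes (20%), beside 18.3% of the 11124 tested genes with an entry and 10.9% of all 27025 genes in the table. A CHR match stood in 4 of 19 replication genes (21.1%) and 15 of 20 mitosis genes (75%), beside 16.9% of tested genes and 21.7% of all genes. The NF-Y box was common everywhere: 12 of 19 replication genes (63.2%), 17 of 20 mitosis genes (85%), 42.6% of tested genes and 41.1% of all genes. Among the replication genes with an entry, the E2F match was found in 6 of the 8 that rose in HFD control livers and in 7 of the 11 that did not pass. The CHR match was found in 7 of the 8 mitosis genes that rose and in 8 of the 12 that did not pass. A match describes the letters only, and no binding was measured.

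**Figure D1:**
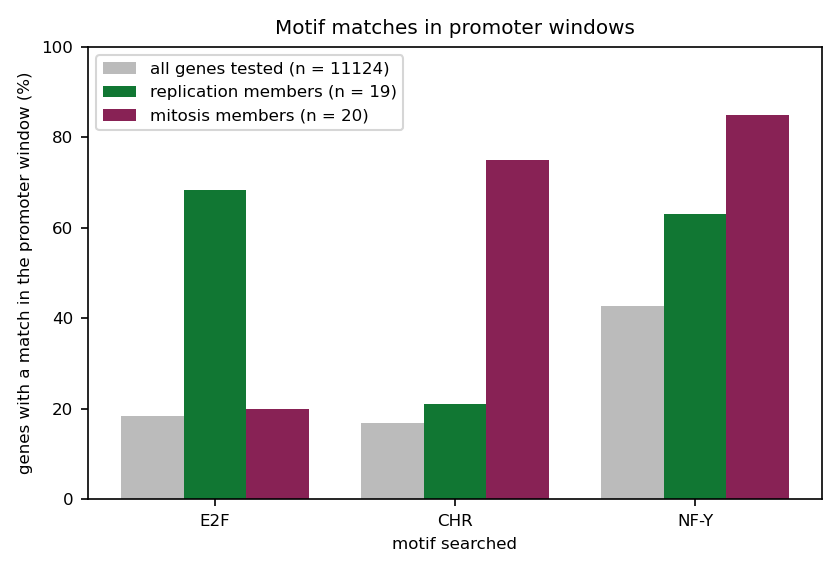
Share of genes (vertical axis, percent, from 0 to 100) with at least 1 match to each motif in the promoter window, for all genes tested (grey), replication members (green) and mitosis members (purple). The E2F bar is highest for replication members (68.4%) and the CHR bar for mitosis members (75%).

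Levels are given as CPM, the counts scaled per library after TMM normalization, which corrects for differences in RNA composition. Totals ranged from 23743415 to 33257260 counts, so that 3 counts, the floor used here, were worth 0.0792 to 0.153 CPM. Many mitosis genes lay within 10 times that floor in lean livers, and counting error is then a large part of their spread. Changes are log2 fold changes ± SE from one edgeR fit over all 12 libraries. Every value written with ± after "rose by", "was at" or "a change of" is on that log2 scale. Rose and fell are used only where edgeR's quasi-likelihood test gave an adjusted p (Benjamini-Hochberg, 15274 genes) below 0.05. In bulk liver, more dividing cells and more RNA per dividing cell cannot be told apart.

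Set as a whole, the members were low in lean livers, and higher in both high-fat groups. The mean ± SD of the replication class (mean log2 CPM, n = 4) was 1.61 ± 0.22 in lean, 2.55 ± 0.26 in HFD control and 2.33 ± 0.21 in NM-FGF19 livers, and that of the mitosis class −0.47 ± 0.33, 1.02 ± 0.58 and 0.41 ± 0.50. The mean log2 CPM of the 24 replication genes was 1.62, 1.78, 1.72 and 1.30 in lean 1 to 4. It was 2.82, 2.26, 2.71 and 2.40 in HFD control 1 to 4, and 2.24, 2.40, 2.10 and 2.60 in NM-FGF19 1 to 4. Neither high-fat group overlapped the lean group, and the high-fat groups overlapped each other. The mean over the 25 mitosis genes tested was −0.72, −0.24, −0.13 and −0.80 in lean 1 to 4, 1.27, 0.35, 1.69 and 0.79 in HFD control 1 to 4, and 0.04, 0.25, 0.20 and 1.15 in NM-FGF19 1 to 4. Here too the lean livers lay below all others. HFD control 3 had the highest value, NM-FGF19 4 stood well above the other NM-FGF19 livers, and HFD control 2 lay close to them. Within the NM-FGF19 group, replicate 4 had the highest level of 23 of the 25 mitosis genes and of 13 of the 24 replication genes. Within the HFD control group, replicate 3 had the highest level of 19 mitosis genes and replicate 1 of 6. These means describe the set and carry no test.

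**Figure D2:**
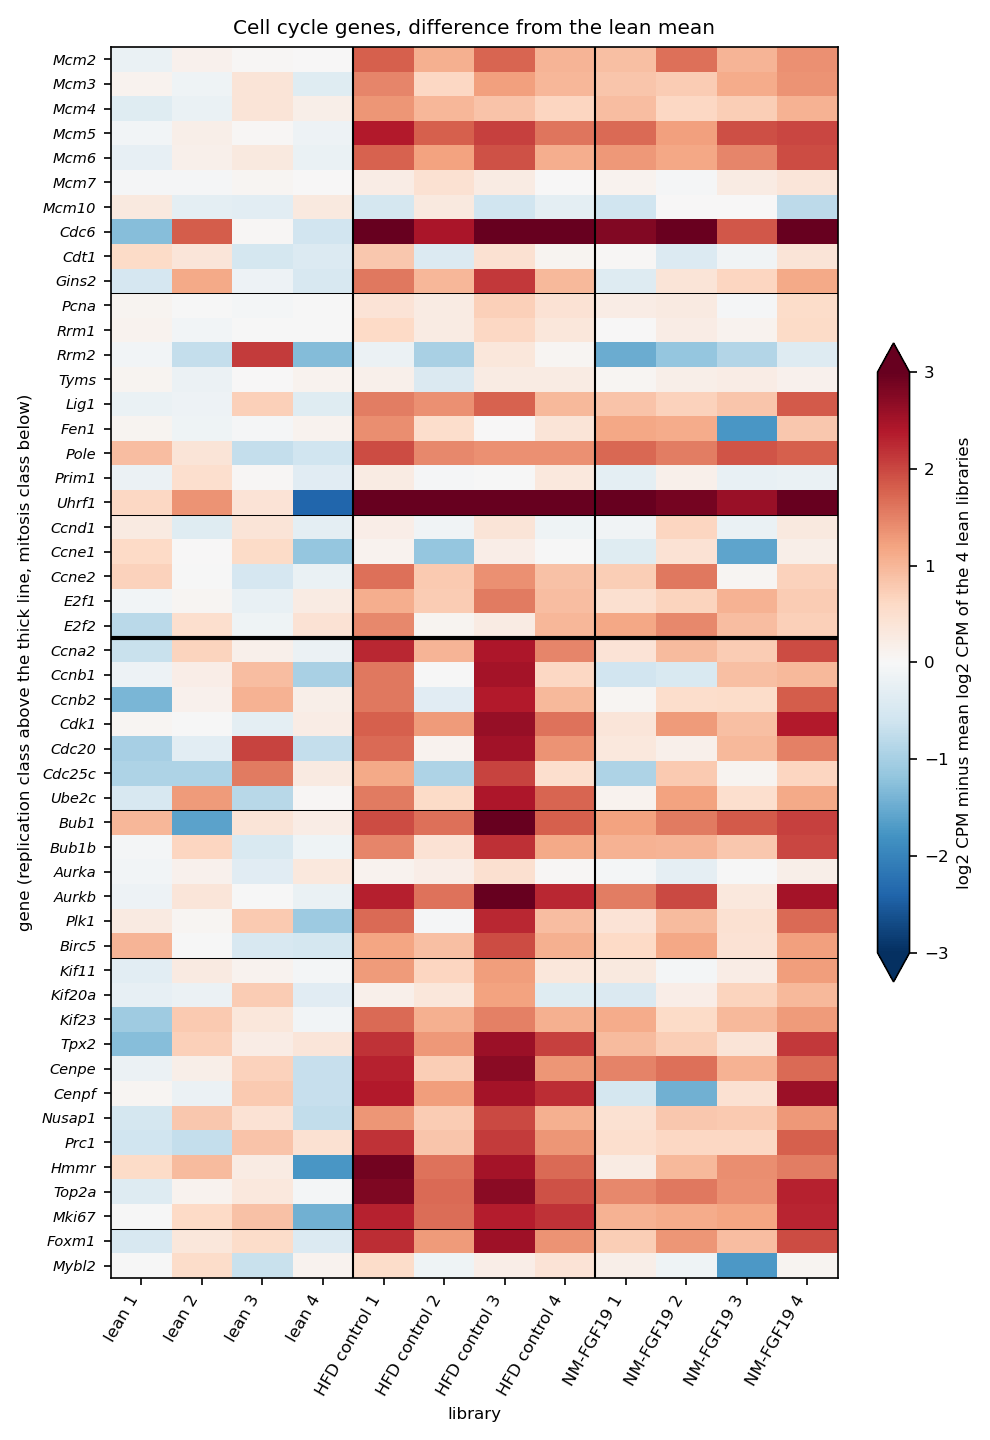
Log2 CPM of each of the 50 members (rows, replication class above the thick line and mitosis class below) in each of the 12 libraries (columns), as the difference from the mean of the 4 lean libraries (red higher, blue lower, colours end at 3 log2 units). The HFD control 3 and NM-FGF19 4 columns are the reddest of their groups in the mitosis class, and the rows of Mcm7, Tyms, Prim1 and Aurka are pale.

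**Figure D3:**
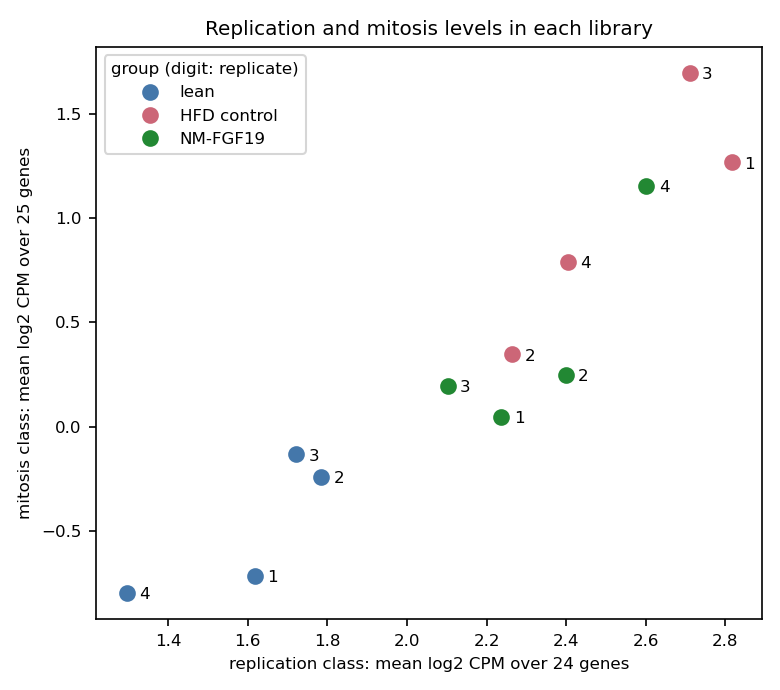
Mean log2 CPM over 24 replication genes (horizontal axis) and over 25 mitosis genes (vertical axis) in each library, with colour for the group and a digit for the replicate. Lean livers lie at the lower left, HFD control 3 and 1 at the upper right, and NM-FGF19 4 apart from the other 3 NM-FGF19 livers.

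The first comparison sets HFD control livers beside lean ones, high-fat diet beside chow. Of the 49 members tested, 22 rose, 0 fell and 27 did not pass, so 44.9% rose beside 5.04% of all genes tested, and 0 fell beside 3.29% of all genes. With library totals as the only scaling, all genes split into 2383 higher and 228 lower, against 770 and 502 with TMM, and 34 members were higher. That scaling moved the median change of all genes by about 0.3 (from −0.02 to 0.29). The members' median log2 change was 1.35, that of all genes −0.02. The groups did not overlap, with HFD control higher, for 26 members, beside 8.4% of all genes. By class, 10 of 24 replication genes and 12 of 25 mitosis genes rose, with medians of 0.91 and 1.57. Leaving out lean 4 gave 12 in place of 22, and leaving out HFD control 1 gave 13. Dropping HFD control 3 gave 12, alone or together with lean 3. DESeq2 called 32. Over all genes, 770 higher became 471 without lean 4, 445 without HFD control 1 and 331 without HFD control 3. They became 323 without HFD control 3 and lean 3, and 1299 with DESeq2.

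The helicase genes gave the clearest change of the replication class. Mcm2 to Mcm7 encode the ring that unwinds DNA ahead of the fork, and 5 of these 6 rose. Mcm5 stood at 2.19, 2.65, 2.40 and 2.10 CPM in lean 1 to 4, 12.3, 8.26, 9.82 and 7.16 in HFD control 1 to 4 and 7.67, 5.54, 9.10 and 9.50 in NM-FGF19 1 to 4. The lean values were tightly grouped, and every high-fat liver was above every lean one. The change was 2.01 ± 0.22 (adjusted p = 0.00141), a 4.03-fold rise. Mcm6 stood at 3.46, 4.55, 5.10 and 3.58 CPM in lean 1 to 4, 14.3, 9.62, 15.7 and 8.81 in HFD control 1 to 4 and 10.2, 9.24, 11.4 and 16.3 in NM-FGF19 1 to 4, and again neither high-fat group overlapped the lean one. It rose by 1.54 ± 0.24 (adjusted p = 0.00484). Mcm2 stood at 2.88, 3.62, 3.37 and 3.32 CPM in lean 1 to 4, 11.6, 6.96, 11.3 and 6.77 in HFD control 1 to 4 and 6.21, 10.5, 6.76 and 8.57 in NM-FGF19 1 to 4. It rose by 1.47 ± 0.23 (adjusted p = 0.00516), also without overlap. The HFD control group split into a higher pair, replicates 1 and 3, and a lower pair, replicates 2 and 4, for both genes. Mcm3 rose by 1.10 ± 0.22 (adjusted p = 0.0125) and Mcm4 by 0.96 ± 0.21 (adjusted p = 0.0156). Mcm7, for the sixth subunit of the same ring, did not pass, at 13.0, 13.2, 14.0 and 13.6 CPM in lean 1 to 4 and 15.8, 18.5, 16.0 and 13.5 in HFD control 1 to 4. Its change was 0.25 ± 0.13 (adjusted p = 0.249).

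Genes that load and start the helicase differed among themselves. Cdc6, for the loader of the MCM ring, rose by 3.21 ± 0.76 (adjusted p = 0.0232), from 0, 11, 2 and 1 counts in lean 1 to 4 to 71, 29, 72 and 45 in HFD control 1 to 4. With so few lean counts the size is unsure, and it was 4.98 without lean 2. Cdt1, its partner in loading, was at 6.23, 5.39, 2.91 and 3.15 CPM in lean and 7.45, 3.13, 5.82 and 4.46 in HFD control livers, with overlap and a change of 0.24 ± 0.31 (adjusted p = 0.697). Gins2, for a subunit of the active helicase, was at 1.42 ± 0.49 (adjusted p = 0.0922), and at 2.05 without lean 2 (adjusted p = 0.0363). Mcm10, for a factor that helps to activate the helicase, did not pass. It stood at 108, 71.9, 70.8 and 108 CPM in lean 1 to 4, 61.3, 107, 58.1 and 72.0 in HFD control 1 to 4 and 58.4, 88.6, 88.4 and 51.0 in NM-FGF19 1 to 4, with overlap between all groups and a change of −0.27 ± 0.24 (adjusted p = 0.544) in HFD control against lean livers.

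In the synthesis list, 3 of 9 genes rose. Uhrf1, for the protein that brings the maintenance DNA methyltransferase to newly copied DNA, was close to silent in lean livers. It stood at 0.479, 0.836, 0.408 and 0 CPM in lean 1 to 4, 5.70, 4.12, 5.82 and 3.27 in HFD control 1 to 4 and 3.68, 2.54, 2.07 and 4.78 in NM-FGF19 1 to 4, and its change of 3.45 ± 0.58 (adjusted p = 0.00711), or 10.9-fold, rests on few lean counts. Every high-fat liver was above every lean one. Lig1, for the ligase that seals newly made lagging-strand pieces, stood at 2.19, 2.28, 4.18 and 1.97 CPM in lean 1 to 4, 7.45, 6.67, 8.76 and 5.06 in HFD control 1 to 4 and 4.64, 4.16, 4.55 and 9.23 in NM-FGF19 1 to 4. HFD control livers lay above lean ones, with lean 3 the highest of its group, and the change was 1.40 ± 0.31 (adjusted p = 0.0186). Pole, for the catalytic subunit of leading-strand polymerase epsilon, stood at 2.40, 1.63, 0.714 and 0.787 CPM in lean 1 to 4, 4.96, 3.42, 3.26 and 3.27 in HFD control 1 to 4 and 4.20, 3.69, 4.68 and 4.39 in NM-FGF19 1 to 4. It rose by 1.41 ± 0.34 (adjusted p = 0.0236).

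The other 6 genes of the synthesis list did not pass. Pcna, for the clamp that holds polymerases on DNA, stood at 17.2, 16.2, 15.6 and 16.0 CPM in lean 1 to 4, 21.7, 19.4, 26.7 and 22.1 in HFD control 1 to 4 and 19.0, 19.7, 15.8 and 23.7 in NM-FGF19 1 to 4. Its HFD control values were all above its lean ones by a small margin, and the change of 0.47 ± 0.14 had an adjusted p of 0.051. Rrm1, for the large subunit of ribonucleotide reductase, likewise did not overlap, at 11.0, 9.57, 10.1 and 10.1 CPM in lean and 15.4, 11.999, 15.6 and 13.0 in HFD control livers, a change of 0.46 ± 0.15 (adjusted p = 0.072). Rrm2, for the small subunit, was decided by 1 library, at 7.64, 4.97, 34.8 and 3.28 CPM in lean 1 to 4 and 7.16, 4.09, 10.4 and 8.50 in HFD control 1 to 4. Its change was −0.75 ± 0.63 (adjusted p = 0.516), and 0.53 without lean 3. Tyms, for thymidylate synthase, was at 0.07 ± 0.17, Prim1, for the primase, at 0.11 ± 0.23 and Fen1, for the flap nuclease, at 0.86 ± 0.74 (adjusted p = 0.838, 0.816 and 0.522).

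Among G1 and G1/S regulators only E2f1 passed. E2f1, for the best known activator of replication genes, stood at 3.12, 3.48, 2.86 and 3.93 CPM in lean 1 to 4, 7.18, 5.68, 9.90 and 6.37 in HFD control 1 to 4 and 4.64, 5.31, 6.93 and 5.64 in NM-FGF19 1 to 4. It rose by 1.12 ± 0.21 (adjusted p = 0.0103), and neither high-fat group overlapped the lean one. Ccne2, for a cyclin E that starts S phase, was at 1.03, 0.604, 0.408 and 0.525 CPM in lean and 2.06, 1.10, 1.68 and 1.17 in HFD control livers. These did not overlap, and the change was 1.21 ± 0.41 (adjusted p = 0.0874). Its relative Ccne1 was at −0.29 ± 0.48 (adjusted p = 0.76) and E2f2 at 0.74 ± 0.36 (adjusted p = 0.226), both with overlap. Ccnd1, for cyclin D1, which couples growth signals to the cycle in hepatocytes, stood at 23.5, 15.3, 25.6 and 16.0 CPM in lean 1 to 4, 22.7, 18.2, 25.7 and 17.9 in HFD control 1 to 4 and 18.4, 30.6, 17.1 and 24.1 in NM-FGF19 1 to 4. All 3 groups spanned about the same range, and the change was 0.07 ± 0.22 (adjusted p = 0.884).

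In the list of cyclins, CDK1 and ubiquitin ligase genes, 2 of 6 tested rose. Cdk1, for the kinase that drives entry into mitosis, stood at 0.925, 0.883, 0.714 and 1.05 CPM in lean 1 to 4, 3.25, 2.23, 5.77 and 2.87 in HFD control 1 to 4 and 1.16, 2.23, 1.71 and 4.88 in NM-FGF19 1 to 4. HFD control livers were all above lean ones, HFD control 3 and NM-FGF19 4 were the highest of their groups, and the change was 1.98 ± 0.44 (adjusted p = 0.018). Ccna2, for cyclin A2, stood at 0.548, 1.49, 1.02 and 0.787 CPM in lean 1 to 4, 4.59, 1.91, 5.15 and 2.62 in HFD control 1 to 4 and 1.23, 1.81, 1.57 and 3.73 in NM-FGF19 1 to 4. It rose by 1.90 ± 0.44 (adjusted p = 0.0215). The cyclin B genes depended on single libraries and did not pass. Ccnb1 was at 1.55 ± 0.70 (adjusted p = 0.193), and at 0.89 without HFD control 3 and 2.05 without lean 3. Ccnb2 was at 1.35 ± 0.66 (adjusted p = 0.229), and at 0.81 and 1.86 without the same libraries. Ube2c, for the ubiquitin-conjugating enzyme of the anaphase-promoting complex, stood at 0.411, 1.53, 0.306 and 0.612 CPM in lean 1 to 4, 1.87, 0.927, 3.52 and 2.16 in HFD control 1 to 4 and 0.648, 1.46, 0.870 and 1.38 in NM-FGF19 1 to 4. Its lean 2 value reached into the HFD control range, and the change was 1.57 ± 0.52 (adjusted p = 0.0803). Cdc20, for an activator of the same complex, was at 1.17 ± 0.72 (adjusted p = 0.348), and its value was 2.58 with lean 3 left out and 0.69 with HFD control 3 left out.

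Mitotic kinase and checkpoint genes gave 2 of 6. Aurkb, for the kinase of the chromosomal passenger complex, stood at 0.274, 0.418, 0.306 and 0.262 CPM in lean 1 to 4, 1.85, 1.10, 3.12 and 1.73 in HFD control 1 to 4 and 1.02, 1.42, 0.401 and 2.08 in NM-FGF19 1 to 4. The 4 lean livers were low and alike, all HFD control livers were above them, and the rise was 2.62 ± 0.50 (adjusted p = 0.0109). Its partner in that complex, Birc5 (survivin), was at 1.22 ± 0.40 (adjusted p = 0.0736). Bub1, for a spindle checkpoint kinase, stood at 0.342, 0, 0.204 and 0.175 CPM in lean 1 to 4, 0.739, 0.580, 1.87 and 0.654 in HFD control 1 to 4 and 0.409, 0.539, 0.669 and 0.791 in NM-FGF19 1 to 4. It rose by 2.34 ± 0.64 (adjusted p = 0.0398). Bub1b, for BUBR1 of the same checkpoint, stood at 0.822, 1.39, 0.612 and 0.787 CPM in lean 1 to 4, 2.51, 1.19, 4.16 and 1.99 in HFD control 1 to 4 and 1.84, 1.81, 1.57 and 3.66 in NM-FGF19 1 to 4. It overlapped through lean 2 and HFD control 2, with a change of 1.44 ± 0.42 (adjusted p = 0.0514). Plk1, for polo-like kinase, was at 1.42 ± 0.57 (adjusted p = 0.139). Aurka, for the centrosomal Aurora kinase, was at 2.60, 3.02, 2.19 and 3.45 CPM in lean and 2.98, 3.19, 3.90 and 2.84 in HFD control livers, a change of 0.20 ± 0.21 (adjusted p = 0.622).

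The spindle, kinetochore and chromosome list had the largest share of calls, 7 of 11. Top2a, for the topoisomerase that untangles chromosomes, stood at 1.16, 1.67, 1.94 and 1.49 CPM in lean 1 to 4, 11.2, 5.13, 10.5 and 5.94 in HFD control 1 to 4 and 4.2975, 4.77, 4.08 and 7.91 in NM-FGF19 1 to 4. Every high-fat liver was above every lean one, and HFD control 1 and 3 were about double HFD control 2 and 4. It rose by 2.39 ± 0.32 (adjusted p = 0.00275), a 5.25-fold rise. Mki67, for Ki-67, the usual marker of dividing cells, stood at 1.99, 3.07, 3.77 and 0.699 CPM in lean 1 to 4, 10.2, 6.58, 10.6 and 9.32 in HFD control 1 to 4 and 4.23, 4.46, 4.68 and 10.1 in NM-FGF19 1 to 4. The high-fat groups again lay above all lean livers, and the rise was 1.95 ± 0.43 (adjusted p = 0.0176). Cenpe, for a kinetochore motor, stood at 0.274, 0.372, 0.561 and 0.175 CPM in lean 1 to 4, 1.85, 0.580, 2.46 and 0.910 in HFD control 1 to 4 and 1.02, 1.15, 0.736 and 1.19 in NM-FGF19 1 to 4. It rose by 2.08 ± 0.50 (adjusted p = 0.0232).

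The other 4 of the 7 were Tpx2, a spindle assembly factor, Hmmr, a spindle and hyaluronan-binding protein, Prc1, which bundles the central spindle, and Kif23, a motor of cytokinesis. They rose by 2.04 ± 0.50, 2.27 ± 0.64, 1.65 ± 0.48 and 1.30 ± 0.38 (adjusted p = 0.0264, 0.0456, 0.0494 and 0.04996). Cenpf was at 2.26 ± 0.79 (adjusted p = 0.0948), Nusap1 at 1.28 ± 0.40 (adjusted p = 0.0665), Kif11 at 0.96 ± 0.34 (adjusted p = 0.0983) and Kif20a at 0.40 ± 0.44 (adjusted p = 0.634). Kif11 and Cenpf did not overlap between the groups, and Nusap1 and Kif20a did. Of the transcription factors, Foxm1 stood at 0.411, 0.790, 0.918 and 0.437 CPM in lean 1 to 4, 3.06, 1.57, 3.84 and 1.65 in HFD control 1 to 4 and 1.06, 1.62, 1.20 and 2.54 in NM-FGF19 1 to 4. It rose by 2.00 ± 0.42 (adjusted p = 0.0155) without overlap. Mybl2 was at 0.925, 1.39, 0.561 and 1.01 CPM in lean 1 to 4, 1.40, 0.841, 1.07 and 1.25 in HFD control 1 to 4 and 1.06, 0.847, 0.234 and 0.989 in NM-FGF19 1 to 4, with overlap between all groups and a change of 0.23 ± 0.43 (adjusted p = 0.789).

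Calls of 11 members held in each of the 8 fits that left out 1 lean or HFD control library: Mcm2, Mcm3, Mcm4, Mcm5, Mcm6, Uhrf1, E2f1, Aurkb, Top2a, Mki67 and Foxm1. The other 11 lost the call in at least 1. Cdk1 lost it without HFD control 3 (adjusted p = 0.0535). Pole lost it without lean 4 or HFD control 1, Lig1 without lean 2, lean 4 or HFD control 3, and Ccna2 and Tpx2 without lean 4, HFD control 1 or HFD control 3. Cdc6 lost it without lean 3, lean 4, HFD control 1 or HFD control 3. Cenpe lost it without lean 1, lean 2, lean 4, HFD control 1 or HFD control 3. Of the 8 fits, Bub1 kept it only without lean 1 or HFD control 2, Kif23 only without lean 2 or HFD control 2, Prc1 only without lean 3 or HFD control 2, and Hmmr only without HFD control 2. The highest adjusted p in these fits was 0.131, for Bub1. In the same 8 fits, genes outside the 22 gained a call: Birc5 without lean 1, Gins2 without lean 2, Cdc20 without lean 3, Ube2c without lean 2 or HFD control 2, and Pcna, Bub1b and Nusap1 without HFD control 2.

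**Figure D4:**
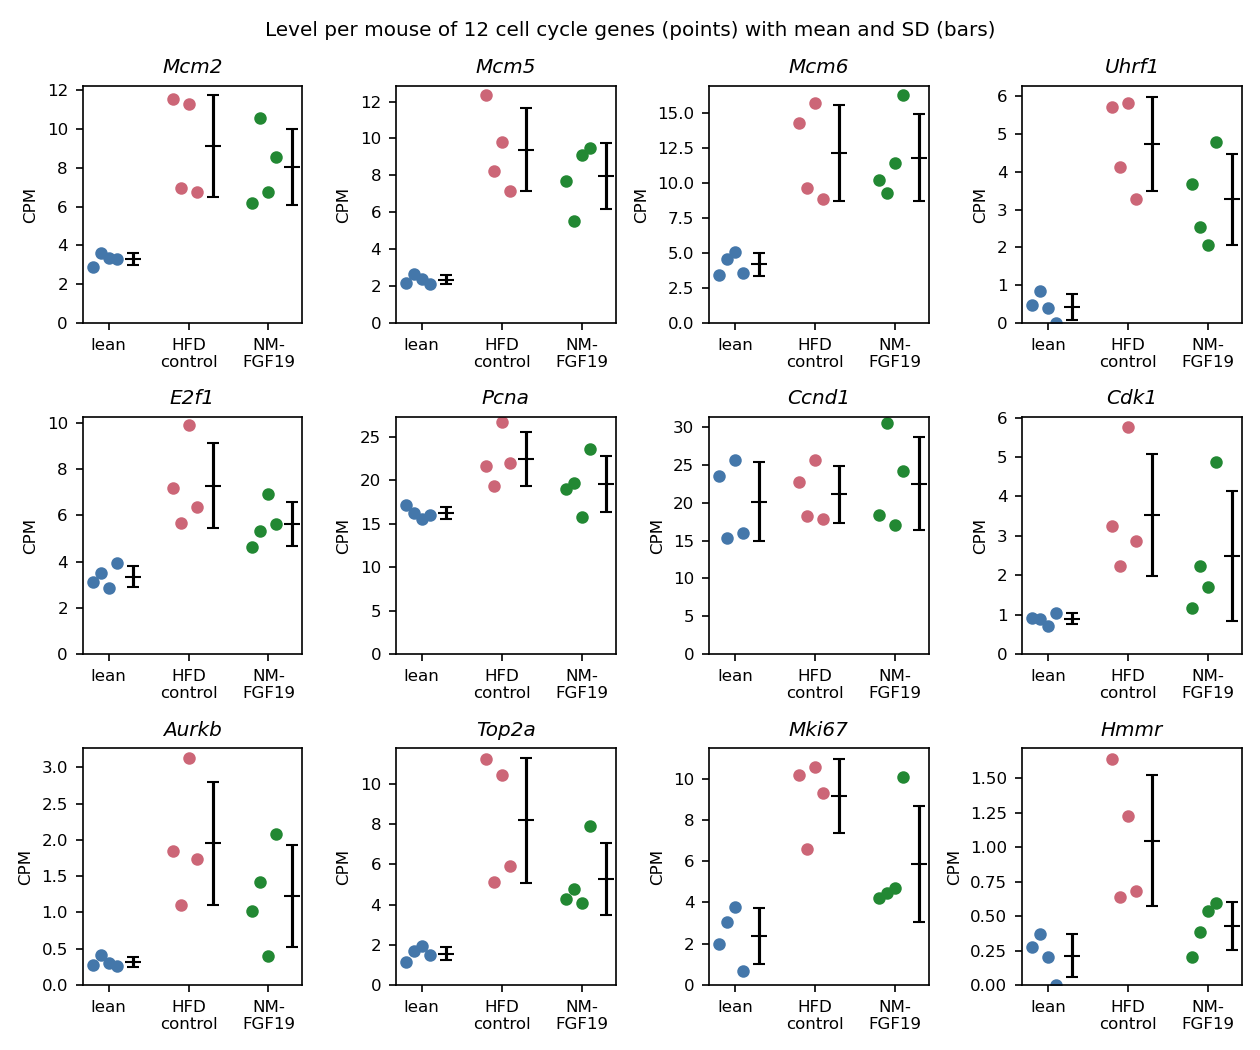
CPM per mouse (points, in order of replicate 1 to 4 within each group) for 12 members, with mean and SD (bars, n = 4 each), every axis starting at 0. Mcm2, Mcm5, Mcm6, Uhrf1, E2f1, Cdk1, Top2a and Mki67 separate lean from both high-fat groups, while Ccnd1 does not separate any groups.

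Other genes of the same pathways, taken from lists that do not overlap the members, gave a similar picture for mitosis. Of 47 other mitosis genes tested, 17 rose (36.2%, beside 5.04% of all genes) and 0 fell, with a median of 1.36. Smc2, for a condensin subunit, stood at 1.61, 1.30, 1.94 and 1.40 CPM in lean 1 to 4, 5.65, 4.43, 5.07 and 3.30 in HFD control 1 to 4 and 3.62, 3.54, 3.55 and 3.82 in NM-FGF19 1 to 4. It rose by 1.56 ± 0.22 (adjusted p = 0.00285). Incenp, for the scaffold of the passenger complex, rose by 1.58 ± 0.25 (adjusted p = 0.00516). Of 43 other replication and S phase genes 8 rose (18.6%) and 0 fell, with a median of only 0.19. Clspn, for the fork protein claspin, rose by 2.61 ± 0.47 (adjusted p = 0.00859), and Cdc7, for the kinase that fires origins, by 2.86 ± 0.53 (adjusted p = 0.0101). Of 23 other G1 cyclins, CDKs, pocket proteins and E2Fs, 1 rose (4.35%, near the share of all genes) and 0 fell, with a median of 0.09. The 1 was Ccnd2, for cyclin D2, at 8.90, 8.22, 6.68 and 11.0 CPM in lean 1 to 4, 16.4, 19.1, 12.8 and 14.5 in HFD control 1 to 4 and 13.9, 13.0, 16.6 and 12.8 in NM-FGF19 1 to 4. It rose by 0.85 ± 0.17 (adjusted p = 0.0127).

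Of the CDK inhibitors, which hold the cycle back, 0 of 6 tested passed. At an unadjusted p below 0.05, 1 was higher and 0 lower in edgeR. Cdkn1a, for p21, spread over 2 orders of magnitude in lean livers, at 2.16, 7.80, 259 and 34.6 CPM in lean 1 to 4, with 21.9, 15.1, 40.7 and 8.44 in HFD control 1 to 4 and 10.4, 3.08, 6.46 and 8.14 in NM-FGF19 1 to 4. Its change between the diets was −1.81 ± 1.14 (adjusted p = 0.368). Cdkn1b, for p27, was at 0.09 ± 0.14 (adjusted p = 0.736), Cdkn1c, for p57, at 1.13 ± 0.49 (adjusted p = 0.173), and Cdkn2c, for p18, at 0.08 ± 0.28 (adjusted p = 0.89). Cdkn2a was at −0.28 ± 0.79 (adjusted p = 0.869) and Cdkn2d at −0.18 ± 0.22 (adjusted p = 0.672).

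NM-FGF19 and HFD control livers share the high-fat diet and differ in the mRNA given. If the HFD control mRNA was that for OX40L, its effect and that of NM-FGF19 cannot be told apart here. No member passed: 0 of 49 rose beside 0.282% of all genes, and 0 fell beside 0.151%. DESeq2 and limma voom also called 0, and so did every fit that left out a library. At an unadjusted p below 0.05, 2 members were lower, Top2a and Hmmr, and 0 higher, or 4.08% of members lower beside 4.2% of all genes. With library totals alone, all genes split into 26 higher and 30 lower, against 43 and 23 with TMM. The groups did not overlap for 1 member, Hmmr, beside 2.38% of all genes. These shares were near or below those of all genes. By sign alone, 43 of 49 had a negative change, beside 50.1% of all genes, and the members' median was −0.37 against −0.00046 for all genes. Members vary together between mice, so this count of signs is a description. Markers of some other cells had negative changes too: 12 of 12 recruited macrophage markers (median −0.65, 5 lower at an unadjusted p below 0.05), 9 of 9 T and NK cell markers (1 lower unadjusted) and 8 of 8 erythroid and blood progenitor markers (3 lower unadjusted). Negative changes were also found for 6 of 7 neutrophil markers (2 lower unadjusted) and 6 of 9 stellate cell and fibroblast markers (1 higher unadjusted). Other lists went the other way. Positive changes were found for 9 of 10 hepatocyte markers (3 higher unadjusted) and 6 of 8 resident Kupffer cell markers (4 higher unadjusted). The same held for 7 of 7 B and plasma cell markers and 5 of 7 bile duct markers, and endothelial markers had 4 of 8 positive. In edgeR 0 of these markers passed after adjustment, and their part in the members' values was not tested.

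The classes are given apart, with no test of the difference between them. The replication median was −0.20, within a range of −1.01 to 0.28 over its 24 genes, and 5 of them had a positive change. The mitosis median was −0.64, within −1.28 to 0.00 over 25 genes, and 24 of them had a negative change. Hmmr stood at 1.64, 0.638, 1.23 and 0.682 CPM in HFD control 1 to 4 and 0.205, 0.385, 0.535 and 0.594 in NM-FGF19 1 to 4, a change of −1.28 ± 0.59 (adjusted p = 0.556). The gap between the groups was small, from 0.594 to 0.638 CPM. Top2a was at −0.64 ± 0.29 (adjusted p = 0.557). The NM-FGF19 4 value of 7.91 CPM lay above HFD control 2 and 4, while NM-FGF19 1 to 3 lay below all 4. Mki67 was at −0.64 ± 0.40 (adjusted p = 0.71), again with NM-FGF19 1 to 3 below all HFD control livers and NM-FGF19 4 among them. Ccnb1 was at −1.23 ± 0.67 (adjusted p = 0.649), Cenpf at −1.15 ± 0.73 (adjusted p = 0.711) and Gins2 at −1.01 ± 0.48 (adjusted p = 0.569). Of the helicase genes, Mcm6 was at −0.04 ± 0.23 (adjusted p = 0.987), Mcm3 at −0.08 ± 0.21 (adjusted p = 0.968) and Mcm5 at −0.24 ± 0.21 (adjusted p = 0.82). Ccnd1 was at 0.09 ± 0.22 (adjusted p = 0.954).

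The 1 NM-FGF19 liver that stood apart weighed on the mitosis class. Without NM-FGF19 4, 15 members were lower at an unadjusted p below 0.05, 0 passed after adjustment, and the mitosis median was −0.97. The value of Cenpf went from −1.15 to −2.71 (adjusted p = 0.0882 in edgeR), since NM-FGF19 1 to 4 held 6, 2, 14 and 68 of its counts. Without HFD control 3 the mitosis median was −0.34, and 0 members were lower at an unadjusted p below 0.05, as was also so without HFD control 1, NM-FGF19 1 or NM-FGF19 2. With NM-FGF19 4, HFD control 3 and lean 3 left out, 9 were lower unadjusted and 0 adjusted. The share of all genes lower at an unadjusted p below 0.05 was not computed for the fits with libraries left out. Their member counts therefore have no background to be read against.

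NM-FGF19 against lean livers compares treated mice on the high-fat diet with chow-fed mice given control mRNA, and shares its libraries with both comparisons above. Here 7 of 49 members rose (14.3%, beside 1.01% of all genes) and 0 fell (beside 0.484%). Library totals alone gave 346 genes higher and 52 lower, against 154 and 74 with TMM, and 10 members higher. The members' median was 0.88 and that of all genes −0.01. For 17 members, every NM-FGF19 liver was above every lean one, beside 5.46% of all genes. Of the 7, 6 were replication genes: Mcm5 at 1.77 ± 0.22 (adjusted p = 0.00324), Mcm6 at 1.50 ± 0.24 (adjusted p = 0.0122), Mcm2 at 1.28 ± 0.23 (adjusted p = 0.0207), Uhrf1 at 2.92 ± 0.58 (adjusted p = 0.0283), Pole at 1.60 ± 0.34 (adjusted p = 0.0403) and Mcm3 at 1.02 ± 0.22 (adjusted p = 0.0432). The seventh was Top2a at 1.76 ± 0.32 (adjusted p = 0.0196). Mcm3 stood at 4.93, 4.23, 6.07 and 3.58 CPM in lean 1 to 4 and 8.32, 7.93, 10.003 and 11.9 in NM-FGF19 1 to 4. For all 7, every NM-FGF19 liver was above every lean one.

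Of the mitosis class 1 of 25 rose in this comparison, with a median of 0.93, and of the replication class 6 of 24, with a median of 0.79. The SEs ran from 0.21 to 0.80 in the mitosis class and from 0.13 to 0.77 in the replication class. Mki67 was at 1.31 ± 0.42 (adjusted p = 0.136), Aurkb at 1.96 ± 0.50 (adjusted p = 0.0707), Cdk1 at 1.48 ± 0.44 (adjusted p = 0.107) and Foxm1 at 1.34 ± 0.42 (adjusted p = 0.128). Several mitosis values rested on NM-FGF19 4: without it Cdk1 was at 0.92, Tpx2 went from 1.13 to 0.60, Ccnb2 from 0.77 to 0.22, and Cenpf from 1.10 to −0.45. The count of 7 became 2 without NM-FGF19 4, 3 without lean 4, 4 without HFD control 1 and 4 without NM-FGF19 1. DESeq2 called 17 and limma voom 3. Over all genes, 154 higher became 43 without NM-FGF19 4, 56 without lean 4, 85 without HFD control 1 and 47 without NM-FGF19 1. They became 601 with DESeq2 and 65 with limma voom. Mcm5 and Mcm6 kept their calls in every alternative run for this comparison. Mcm3 kept its call in 2 of 8 fits with a lean or NM-FGF19 library removed and lost it without NM-FGF19 1, NM-FGF19 3, NM-FGF19 4, lean 1, lean 2 or lean 4. Pole kept it in 1, without lean 1. Uhrf1 lost it without lean 1, lean 3, NM-FGF19 1 or NM-FGF19 4, Mcm2 without lean 4 or NM-FGF19 4, and Top2a without lean 2, lean 4 or NM-FGF19 4. Cdc6 gained a call without lean 2 and Aurkb without NM-FGF19 3.

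Of the other pathway genes, 4 of 43 replication genes rose in NM-FGF19 against lean livers, led by Cdc7 at 2.56 ± 0.54 (adjusted p = 0.0374) and Pold1, for the catalytic subunit of polymerase delta, at 1.10 ± 0.24 (adjusted p = 0.0433). Of 47 other mitosis genes 2 rose, Smc2 at 1.22 ± 0.22 (adjusted p = 0.0196) and Incenp at 1.10 ± 0.25 (adjusted p = 0.0482). The replication and mitosis shares were 9.30% and 4.26%, beside 1.01% of all genes. Of 23 other G1 genes and 6 CDK inhibitors 0 passed, with 3 and 1 higher at an unadjusted p below 0.05 and 0 and 1 lower. The 119 genes of these lists had 0 calls in NM-FGF19 against HFD control livers, with 0 higher and 1 lower at an unadjusted p below 0.05.

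**Figure D5:**
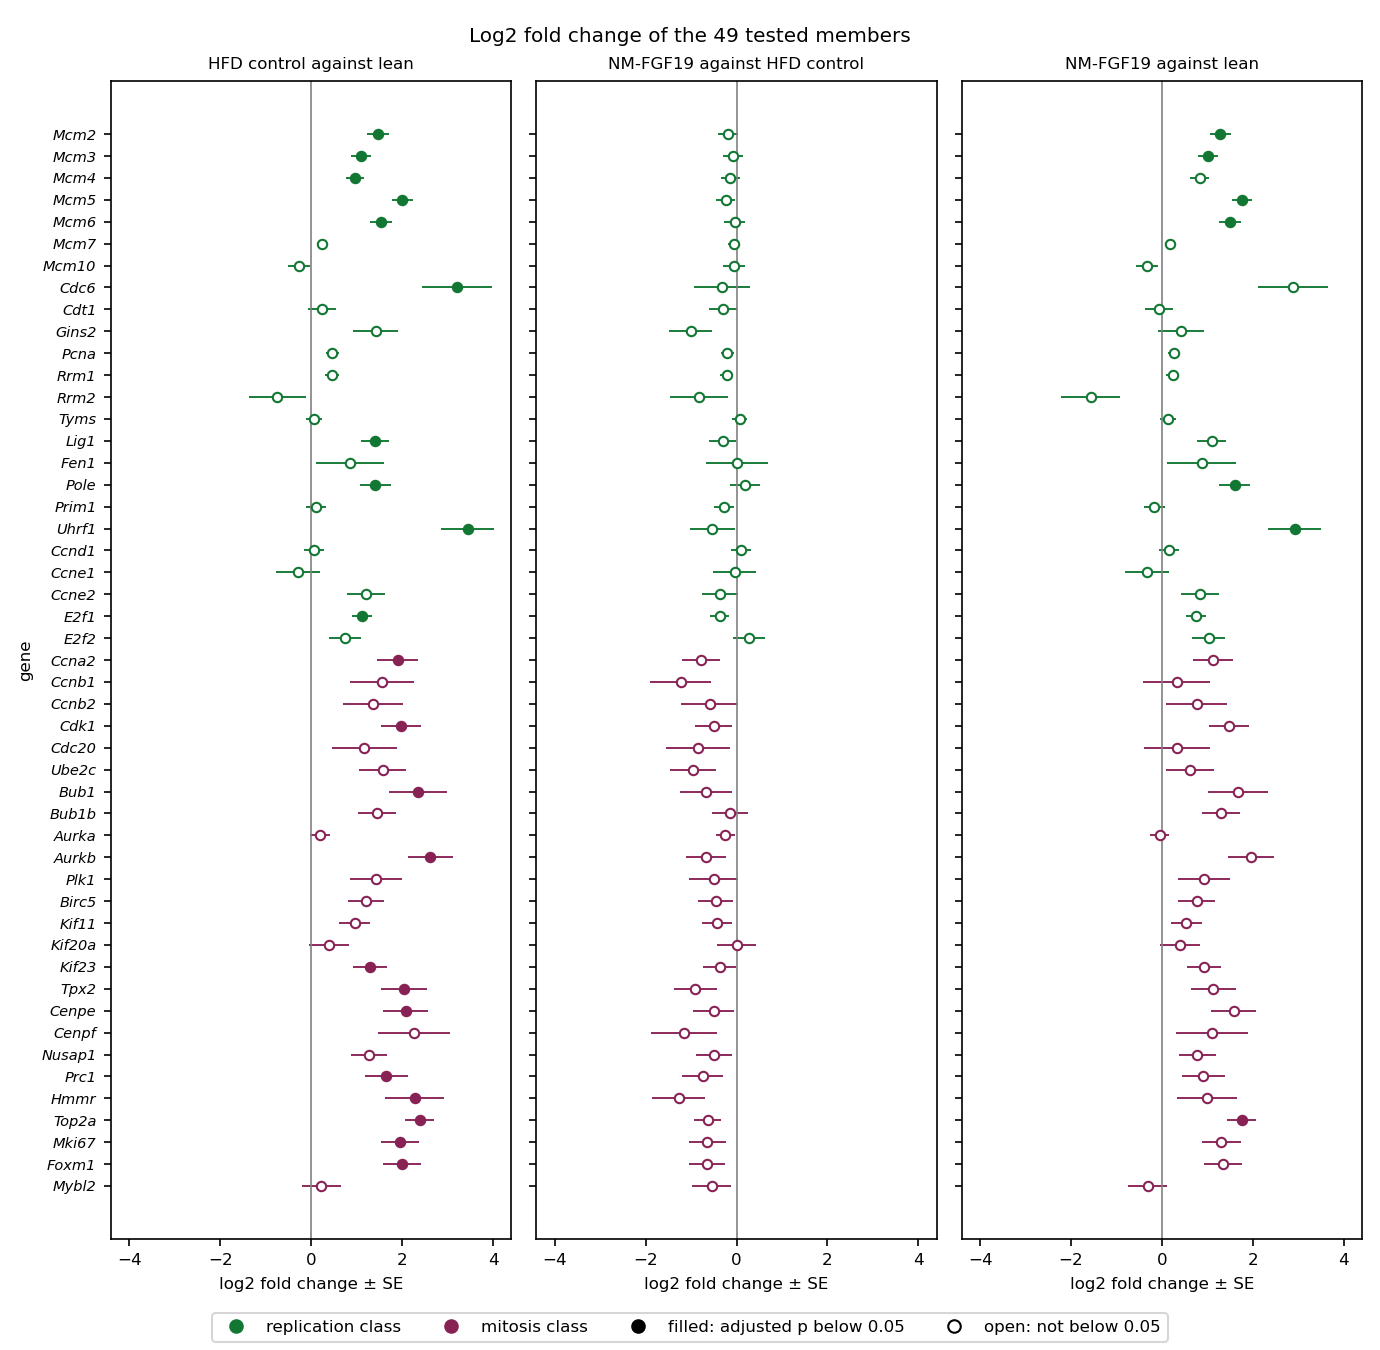
Log2 fold change (horizontal axis) with SE bars for each of the 49 tested members (rows) in the 3 comparisons, green for the replication class and purple for the mitosis class, filled where the adjusted p was below 0.05. The left panel has 22 filled points, the middle panel none and the right panel 7, and in the middle panel most purple points lie left of 0.

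The ratio of mitosis to replication RNA varied between libraries. The difference between the class means, mitosis minus replication, on the log2 scale, was −2.33, −2.03, −1.86 and −2.09 in lean 1 to 4. It was −1.55, −1.92, −1.02 and −1.61 in HFD control 1 to 4, and −2.19, −2.15, −1.91 and −1.45 in NM-FGF19 1 to 4. By this measure, HFD control 1, 3 and 4 and NM-FGF19 4 had more mitosis RNA for their replication RNA than any lean liver. The NM-FGF19 1 to 3 values lay within the lean range, although their replication means were above every lean liver. By summed CPM, HFD control 2 and NM-FGF19 1 and 2 also lay above every lean liver. Mitosis and replication sums were 40.3 and 256.3 in HFD control 2, 32.1 and 202.7 in NM-FGF19 1, and 36.9 and 248.3 in NM-FGF19 2. Lean 2, the highest lean liver by that ratio, had 26.2 and 180.0. Mcm10, which did not follow its class, alone gave 71.9 CPM of the replication sum in lean 2. It gave 107 in HFD control 2, 58.4 in NM-FGF19 1 and 88.6 in NM-FGF19 2. The ratio by sums therefore depends on that gene, and was not computed without it. Gene lengths enter these means alike in every library, so the differences between libraries can be compared and the level of one class against the other cannot. The difference between groups in this ratio was not tested.

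Some lists of markers of other liver cells were highest in the same libraries as the mitosis class, and others were not. The summed level of 9 stellate cell and fibroblast markers was 290.5 to 355.2 CPM in lean, 528.9 to 1201 in HFD control and 396 to 1049 in NM-FGF19 livers, highest in HFD control 3 and NM-FGF19 4. Other libraries did not keep the order of the mitosis means. NM-FGF19 1, lowest of its group there, had 753 CPM. HFD control 2, lowest of its group there, had 659 against 622 in HFD control 1. In HFD control against lean, 4 of these 9 rose and 0 fell. The sum of 12 recruited macrophage markers ran from 179 to 430.2 CPM in lean, 220 to 601 in HFD control and 165 to 360.3 in NM-FGF19 livers, and was highest in lean 3, HFD control 3 and NM-FGF19 4. Of these, 7 of 12 rose and 0 fell between the diets. Spp1 was listed for both recruited macrophages and bile duct cells, so it enters the sums and counts of both lists. The 8 resident Kupffer cell markers summed to lower values on the high-fat diet, from 910.0 to 1211 CPM in lean to 335 to 653 in HFD control and 373 to 850.1 in NM-FGF19 livers, with 6 of 8 lower in HFD control against lean.

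The other marker lists had at most 1 call each in HFD control against lean livers. The 8 bile duct markers summed to 55.2 to 280.2 CPM, 34.6 to 131 and 35.4 to 124 for the lean, HFD control and NM-FGF19 groups, with lean 3 the highest of all and 1 of 7 tested lower in HFD control against lean. The 10 hepatocyte markers summed to 101118 to 143748, 65292 to 87918 and 107443 to 154593 CPM in the same order, with 1 of 10 lower in HFD control against lean. At an unadjusted p below 0.05 in edgeR, 5 hepatocyte markers were lower and 0 higher, and 9 of 10 had a negative change (median −0.53). T and NK cell markers summed to at most 14.9 CPM in any library, with 0 of 9 tested passing between the diets in edgeR (2 higher and 0 lower at an unadjusted p below 0.05). B and plasma cell markers reached 39.9 CPM, with 0 of 7 passing (0 also at an unadjusted p below 0.05). The 8 neutrophil markers summed to 16.7 to 83.0 CPM, 10.5 to 17.4 and 3.00 to 17.2, with 1 of 7 tested lower in HFD control against lean (6 lower and 0 higher unadjusted). Erythroid and blood progenitor markers summed to 259 to 315 CPM in lean and 262 to 664 in HFD control livers, with 0 of 8 passing (3 higher and 0 lower unadjusted), and endothelial markers to 399 to 469 and 405 to 518, with 1 of 8 higher. No list had a gene at 0 in all 4 libraries of a group. The part that these cells have in the members' changes was not tested.

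Some members share exon sequence with other genes, and whether reads were counted by strand is not given in the sources used here. In the GENCODE M21 annotation, which is older than the counts' build, 78.8% of the Fen1 exon bases overlap the opposite-strand gene Gm10143 and 67.3% of the Gins2 bases overlap Gse1. Kif20a shares 29.3% with Cdc23, Ccnd1 23.4% with LTO1, Ube2c 22.8% with Tnnc2, Ccne2 17.4% with Ints8, Ccna2 12.5% with Exosc9 and Prc1 11.1% with Rccd1. Values of these genes are uncertain. No gene on the annotation overlaps the exons of Mcm2, Mcm3, Mcm5, Mcm6, Uhrf1, E2f1, Mki67, Cdk1 or Aurkb.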

How the data were processed

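RNA was extracted from liver sections of 12 mice, 4 in each group. Per the labels, a stranded mRNA kit was used on 100 ng of RNA, with paired reads of 101 nt. The authors deposited raw read counts per gene, made with Trimmomatic, STAR and featureCounts on mm39 per the submitters' processing notes. Their versions, the annotation and the strand mode were not given in the sources used here. All 12 columns were mapped by name, and 0 were left over.

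Gene symbols matched 52083 of 55359 IDs. The test was that of edgeR 4.0.16 under R 4.3.3 (filterByExpr with a minimum count of 10, TMM, robust quasi-likelihood F test, 2-sided, Benjamini-Hochberg adjustment over 15274 genes, threshold 0.05), in one fit of all 12 samples by group. The code was tested on simulated data. Log2 CPM used a prior count of 2. Promoters and exon overlaps came from RefSeq GRCm38.p6 and GENCODE M21, with no coordinates shared between builds.

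The members and gene lists were chosen with earlier results of these data known. Values per mouse are given for up to 3 members of each functional list with the smallest adjusted p, and for Ccnd1, Mki67, Pcna, E2f1, Cdk1 and Top2a. From the other lists, up to 2 called genes in each direction and all CDK inhibitors tested are named. Values of other members printed per mouse were chosen after they were seen. Replicates differed by at least 37.6 chi-square units per degree of freedom, so no library was a copy of another. Each library is 1 mouse, as far as the labels tell. Alternatives were DESeq2 1.42.0, limma 3.58.1 voom, RLE factors, library totals alone, no filter, a filter of 1 CPM in 4 samples, a fit that is not robust, only 2 groups, the replicate number as a block, each library left out, and sets of outlying libraries left out.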

Additional observations from a re-analysis of the deposited data

Results flagged for a closer look

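Of 147 sets of 4 mice (49 members in 3 groups), 9 had a mouse farther from the other 3 than Dixon's limit for 4 values allows, where about 1 in 20 is usual without any cause. Of the 9, 3 were high values of NM-FGF19 4: Lig1 at 9.23 CPM with the next liver at 4.64, Prc1 at 2.41 with the next at 1.04, and Mki67 at 10.1 with the next at 4.68. In NM-FGF19 3, 2 were low: Fen1 at 0 counts, so 0 CPM, with the next at 0.330, and Mybl2 at 0.234 with the next at 0.847. In HFD control 2, 2 were low: Tyms at 4.17 with the next at 6.26, and Ccne1 at 0.870 with the next at 2.02. The others were Pole in HFD control 1, at 4.96 with the next at 3.42, and Kif20a in lean 3, at 1.58 with the next at 0.790.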

How the results depend on the processing

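In HFD control against lean livers, the count of 22 members higher became 34 with library totals alone and 12 without lean 3 and HFD control 3, and ran from 12 to 26 when 1 library was left out. It stayed within 1.5 times with DESeq2, voom, RLE factors, the other filters, the fit that is not robust and the fit of 2 groups. In NM-FGF19 against lean, the count of 7 became 17 with DESeq2, 3 with voom, 4 in the fit of only 2 groups and 4 without NM-FGF19 4, HFD control 3 and lean 3, a set chosen after seeing the data. It ran from 2 to 7 when 1 library was left out. All genes higher ran from 43 to 181 in the same fits, and from 331 to 926 in HFD control against lean. In HFD control against lean they were 2383 with library totals alone and 323 without lean 3 and HFD control 3. In NM-FGF19 against lean they were 601 with DESeq2, 65 with voom and 74 in the fit of only 2 groups. Without NM-FGF19 4, HFD control 3 and lean 3 they were 110. The cause was not tested, except that fits with fewer libraries have fewer degrees of freedom. In NM-FGF19 against HFD control, 0 members passed in each alternative, and no called member changed sign in any.

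The replicate numbers share only a number: deviations of same-numbered mice correlated from −0.36 to 0.07, and 1 of 12 such pairs was the best match. With the number as a block, 13 members were higher in HFD control against lean, 2 in NM-FGF19 against lean and 0 in NM-FGF19 against HFD control. All genes higher with the block were 384, 25 and 12 in the same order.

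Low counts limit the mitosis class most, since 3 counts were worth up to 0.153 CPM and many lean values were below 1 CPM.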

Other observations

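Per kilobase of exon (GENCODE M21 lengths), Mcm10 had the highest mean of the 50 members in lean livers, at 11.7 CPM per kb, ahead of Pcna at 6.77, Rrm2 at 4.58 and Ccnd1 at 4.28. In HFD control livers it was at 9.69 and Pcna at 9.36. The other helicase genes were lower, with Mcm7 at 3.04 and Mcm4 at 1.27 in lean livers. No gene overlaps Mcm10 exons on that annotation, and what its reads represent was not tested.

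Lean 3 had 259 CPM of Cdkn1a, against at most 40.7 in any other library, and 34.8 CPM of Rrm2, against at most 10.4.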
